A study of Homo sapiens with 22 samples.

Results

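The genes described here code for the subunits of RNA polymerases I, II and III and for the general factors that place these enzymes on promoters. A row of the deposited tables was a member when its symbol started with POLR1, POLR2 or POLR3 and a further letter, with GTF2 or GTF3, or was RRN3, UBTF, TAF1A, TAF1B, TAF1C, TAF1D, BRF1, BRF2, BDP1 or MAF1. After 6 pseudogene names were left out, 67 genes remained of 24560 genes listed in both experiments, and all 67 were among the 24051 genes tested, which had a mean level of at least 1 CPM, the read count scaled to library size, in each experiment.

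The cells were Ls174T, a human colon carcinoma line, and BI8622 is a small-molecule inhibitor of HUWE1, a ubiquitin ligase. In the HUWE1 experiment, cells infected with the empty pLKO vector (control vector) or with a lentiviral shRNA against HUWE1 (shHUWE1) were kept under puromycin selection and received DMSO or 20 µM BI8622 for 16 h. In the MIZ1 experiment, cells with a pIND vector that carries a doxycycline-inducible shRNA against MIZ1 (shMiz1) were left without doxycycline or kept in 1 µg/ml of it over 4 days, with DMSO or BI8622 added in the same way. Each experiment had 4 groups of 2 RNA libraries, and no library of a non-targeting inducible shRNA was among them, so an effect of doxycycline itself and of the shRNA cannot be told apart. A cell context with its own DMSO and BI8622 libraries is called an arm, which gives 4 arms.

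RNA polymerase I transcribes the large ribosomal RNA precursor, polymerase II the messenger RNAs, and polymerase III the transfer RNAs, 5S ribosomal RNA and other short RNAs. Each enzyme has its own catalytic core and peripheral subunits. A set of small subunits is common to all of them, and a pair of assembly subunits is common to polymerases I and III. Recruitment needs factors of its own for each enzyme: UBTF, the SL1 complex and RRN3 for polymerase I, the TFII factors for polymerase II, and TFIIIA, TFIIIB and TFIIIC for polymerase III, which MAF1 represses. Growing tumour cells make much ribosomal and transfer RNA, and MYC is known to drive transcription by all of these enzymes. Since poly-A RNA was sequenced, the data hold the messenger RNAs of these proteins and not the products of polymerases I and III.

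The labels were checked first. The HUWE1 level was 420 CPM in control vector cells in DMSO and 460 in BI8622, against 218 and 176 CPM in shHUWE1 cells. ZBTB17, the gene of MIZ1, stood at 15.7 CPM in DMSO and 22.6 in BI8622 without doxycycline, and at 11.0 and 11.4 CPM with it. Both targeted transcripts were therefore lower in the depleted cells in either treatment (adjusted p = 1.00e-08 for HUWE1 and 8.07e-12 for ZBTB17). All 12 markers of colon epithelium were found, with a summed level of 1968 to 3452 CPM over the 8 groups. KRT8, KRT18 and EPCAM made up most of this sum, while KRT20 stayed between 2.54 and 9.48 CPM. CSF1R, at 153 to 204 CPM, made up most of the sum of the 3 leukocyte markers found (156 to 207 CPM), while PTPRC stayed between 1.49 and 2.78 CPM. The 2 fibroblast markers found summed to 4.05 to 8.09 CPM, and the 1 endothelial marker, VWF, was at 1.25 to 2.61 CPM.

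A group level is the mean of 2 libraries in CPM, solved from the mean levels that the authors deposited for pairs of groups. Values of single libraries and depths per library were not used here, so no spread between libraries and no counting interval is given. The response to BI8622 is the log2 difference of BI8622 and DMSO in an arm, after 0.5 CPM was added to each level and the median of all genes was set to 0. Its mean over the 4 arms was tested with limma and adjusted over all genes, and a gene was called at an adjusted p under 0.05. The SD given is that over the 4 arms. The arms share no library, but arms of 1 experiment may share culture days, so a p-value measures the spread between these arms and may be technical in part. The levels are shares of a library, taken from whole cultures: a lower level in every cell and fewer cells with the transcript cannot be told apart, and the amount of RNA per cell was not measured.

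In response to BI8622, 25 of the 67 members fell (37.3%) and 10 rose (14.9%). Over all genes tested, 22.7% fell and 23.1% rose. The median response of the members was -0.06 on the log2 scale, against 0.00 for all genes. By class, all 3 members found only in polymerase I fell, as did all 5 small subunits common to the 3 enzymes. Of the 11 genes of polymerase II only, 4 fell and 2 rose, and of the 10 genes of polymerase III only, 2 fell and 2 rose. Among the factors, 7 of 11 for polymerase III fell and none rose, whereas 2 of 15 for polymerase II fell and 2 rose. Counted by enzyme with the shared subunits, 8 of 10 members of polymerase I fell. For polymerase II 9 of 16 fell, and for polymerase III 7 of 17. The median responses were -0.41, -0.31 and -0.12. Subunits under other symbols, such as CD3EAP, TWISTNB, ZNRD1 and CRCP, were no members and are left out of these counts. The shared subunits enter these counts for each enzyme, and the differences between enzymes were not tested.

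The counts depended on the arms used. Without the shMiz1 arm with doxycycline, 20 members fell and 4 rose, where 16.1% of all genes fell and 16.8% rose. Without the shMiz1 arm with no doxycycline, 23 members fell and 6 rose, where 17.0% of all genes fell and 17.9% rose. The calls over all genes thus became fewer in these fits too. In the arms of the HUWE1 experiment alone, 24 members fell and 7 rose, where 17.6% of all genes fell and 18.9% rose. In the arms of the MIZ1 experiment alone, 31 fell and 15 rose, where 28.5% of all genes fell and 27.9% rose. Each fit within 1 experiment rests on 2 arms, so its p-values lean on a variance prior that follows the expression level. Called in each experiment alone, 21 of the 67 members fell in both (31.3%) and 5 rose in both (7.46%), against 15.1% and 15.5% of all genes.

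Polymerase I was lower in its catalytic core. POLR1A, the largest subunit (ENSG00000068654, chr2:86247339-86333278 on the minus strand in GRCh37), was at 147 CPM in control vector cells in DMSO and at 118 in BI8622, at 152 and 113 CPM in shHUWE1 cells, at 149 and 90.4 CPM in shMiz1 cells without doxycycline and at 151 and 84.8 CPM with it. The DMSO levels lay within a few CPM of each other and all BI8622 levels below them, lowest in the shMiz1 cells. The mean response was -0.58 ± 0.25 (SD, 4 arms; adjusted p = 0.000860), a 1.49-fold lower level.

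POLR1B, which forms the active centre together with POLR1A (chr2:113299492-113337395, plus strand), went from 98.4 to 76.3 CPM in control vector cells, from 94.6 to 73.3 CPM in shHUWE1 cells, from 103 to 58.0 CPM without doxycycline and from 100 to 62.0 CPM with it. The response was -0.57 ± 0.25 (SD, 4 arms; adjusted p = 0.000978), again with no overlap between treatments. POLR1E, a peripheral subunit that helps initiation and elongation, fell by 0.36 ± 0.08 on the log2 scale (adjusted p = 0.00173), with DMSO levels of 36.6 to 39.6 CPM and BI8622 levels of 27.5 to 30.5 CPM. Of the assembly subunits that polymerase I shares with polymerase III, POLR1C gave 0.00 ± 0.08 (adjusted p = 0.967) and POLR1D 0.10 ± 0.09 (adjusted p = 0.179), so neither passed the test.

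Further polymerase I subunits carry older symbols in these tables and were no members by the rule. In a list of 4 such genes with the termination factor TTF1, 3 fell and none rose, with a median response of -0.32. Over all genes tested, 22.7% fell and 23.1% rose. CD3EAP, a subunit that pairs with POLR1E, gave -0.97 ± 0.32, TWISTNB, a stalk subunit, -0.40 ± 0.28, and TTF1 -0.25 ± 0.05. ZNRD1, a further polymerase I subunit, was not called, at -0.02 ± 0.21 (adjusted p = 0.904).

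Every small subunit common to all enzymes fell. POLR2E (ENSG00000099817, chr19:1086573-1095379, minus strand) went from 111 to 77.8 CPM in control vector cells, from 112 to 75.5 CPM in shHUWE1 cells, from 103 to 68.6 CPM without doxycycline and from 103 to 67.4 CPM with it. The 4 arms agreed within 0.06 (SD) around a response of -0.57 (adjusted p = 9.85e-05). POLR2L, which binds zinc and is needed for assembly, fell by 0.44 ± 0.04 (adjusted p = 0.000269), POLR2F by 0.38 ± 0.09 and POLR2H by 0.35 ± 0.08. The POLR2L level was 138 CPM in both DMSO groups of the HUWE1 experiment and 93.7 and 96.1 CPM in those of the MIZ1 experiment, whose table was scaled separately. POLR2K had the widest spread of the 5, from 23.9 to 21.6 CPM in control vector cells and from 30.8 to 18.1 CPM without doxycycline, and a response of -0.44 ± 0.31 (adjusted p = 0.0102). It did not pass the test in the HUWE1 arms alone (-0.18, adjusted p = 0.112) or without the shMiz1 doxycycline arm (adjusted p = 0.0558).

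The subunits of polymerase II did not move together. POLR2D, a stalk subunit (ENSG00000144231, chr2:128601127-128615729, minus strand), fell most: its levels were 54.2 and 31.1 CPM in control vector cells in DMSO and BI8622, 47.7 and 28.1 CPM in shHUWE1 cells, 56.6 and 30.2 CPM without doxycycline and 54.1 and 28.3 CPM with it. All BI8622 levels lay far below the lowest DMSO level. The response was -0.85 ± 0.10 (adjusted p = 5.10e-05), a 1.80-fold lower level. POLR2G, the other stalk subunit, gave -0.08 ± 0.09 (adjusted p = 0.366) and did not pass the test.

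The catalytic subunits of polymerase II went in opposite directions. POLR2A, which carries the C-terminal repeat domain, rose from 331 to 368 CPM in control vector cells, from 348 to 369 CPM in shHUWE1 cells, from 366 to 466 CPM without doxycycline and from 389 to 456 CPM with it, a response of 0.20 ± 0.09 (adjusted p = 0.0192). DMSO and BI8622 levels overlapped across the experiments, and the call was lost without either shMiz1 arm (adjusted p = 0.0963 and 0.0921) and in the HUWE1 arms alone (adjusted p = 0.0905). POLR2B, its partner in the active centre, went from 216 to 184 CPM in control vector cells, from 218 to 205 CPM in shHUWE1 cells, from 223 to 154 CPM without doxycycline and from 225 to 153 CPM with it. It fell by 0.36 ± 0.25 (adjusted p = 0.00938), though not past the threshold in the HUWE1 arms alone (-0.15, adjusted p = 0.0527) or without the shMiz1 doxycycline arm (adjusted p = 0.0577).

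POLR2I, a small subunit near the jaw of the enzyme that is involved in transcript cleavage and fidelity, fell by 0.34 ± 0.11, and POLR2C, part of the assembly platform, by 0.28 ± 0.06. POLR2M, a subunit present on a part of the enzyme that opposes the action of TFIIF, rose from 28.3 to 39.2 CPM in control vector cells, from 23.7 to 32.2 CPM in shHUWE1 cells, from 44.3 to 58.6 CPM without doxycycline and from 50.8 to 70.7 CPM with it. Its response of 0.44 ± 0.05 (adjusted p = 0.000435) was nearly the same in every arm, although the levels of the MIZ1 experiment lay above those of the HUWE1 experiment. The near-identical copies POLR2J, POLR2J2, POLR2J3 and POLR2J4, of which the annotation lists POLR2J4 as a long non-coding RNA, were not called, with responses of -0.08 to 0.12, and reads may be split between them. Without these copies and POLR2M, 4 of 6 polymerase II subunits fell and 1 rose, with a median of -0.31. This subset leaves out POLR2M, which rose. With all 11 genes of the class, 4 fell and 2 rose, with a median of -0.08. Over all genes tested, 22.7% fell and 23.1% rose.

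Of the 10 subunits of polymerase III only, 2 fell and 2 rose, where 22.7% of all genes fell and 23.1% rose. POLR3K, the subunit for transcript cleavage and termination (ENSG00000161980, chr16:96407-103608, minus strand), went from 29.5 to 13.3 CPM in control vector cells, from 25.1 to 14.4 CPM in shHUWE1 cells, from 23.7 to 12.3 CPM without doxycycline and from 26.0 to 12.7 CPM with it. Its treatments did not overlap, and the response of -0.96 ± 0.16 (adjusted p = 7.24e-05) was the lowest of all members, a 1.95-fold lower level. The 2 catalytic subunits did not pass the test, POLR3A with -0.18 ± 0.14 (adjusted p = 0.0599) and POLR3B with -0.07 ± 0.19 (adjusted p = 0.539).

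POLR3G and POLR3GL are alternative forms of one subunit; POLR3G is known from stem and tumour cells and POLR3GL from differentiated tissue. POLR3G (ENSG00000113356, chr5:89767565-89810374, plus strand) fell from 31.6 to 21.6 CPM in control vector cells, from 27.2 to 19.1 CPM in shHUWE1 cells, from 39.1 to 18.7 CPM without doxycycline and from 41.1 to 19.0 CPM with it. The response was -0.80 ± 0.33 (adjusted p = 0.000634). POLR3GL (ENSG00000121851, chr1:145456236-145470400, minus strand) rose from 10.6 to 12.7 CPM, from 11.4 to 13.2, from 13.9 to 18.4 and from 16.9 to 19.7 CPM in the same order of arms. Its response was 0.26 ± 0.06 (adjusted p = 0.0182), but the call was lost in the HUWE1 arms alone (adjusted p = 0.0895) and without the control vector arm (adjusted p = 0.0503), the shMiz1 arm with no doxycycline (0.0843) or that with doxycycline (0.0553). Per kilobase of the annotated canonical transcripts, the level of POLR3G was 0.86 to 1.06 times that of POLR3GL in the 4 DMSO groups, and 0.61 times in control vector cells, 0.52 times in shHUWE1 cells, 0.36 times without doxycycline and 0.35 times with it in BI8622.

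POLR3D, which forms a subcomplex with POLR3E, rose by 0.30 ± 0.16 on the log2 scale (adjusted p = 0.00978). It did so most in the shMiz1 cells, from 28.9 to 40.5 and from 28.3 to 38.2 CPM. In the HUWE1 arms alone the response of POLR3D was 0.17 (adjusted p = 0.0974), and without the shMiz1 doxycycline arm the adjusted p was 0.0584. The 6 polymerase III subunits that were not called, POLR3A and POLR3B included, gave -0.18 to 0.04. Of 8 further genes linked to polymerase III, 5 fell and 1 rose, where 22.7% of all genes fell and 23.1% rose. SSB, the La protein that binds the ends of polymerase III transcripts, fell by 0.66 ± 0.25, CRCP, a polymerase III subunit named otherwise, by 0.36 ± 0.11, and the activator ZNF143 by 0.36 ± 0.15, while SNAPC1 rose by 0.36 ± 0.23.

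Of the factors for polymerase III, 7 of 11 fell, most of them in TFIIIC. Of the 6 subunits of TFIIIC, which binds the internal promoter boxes of transfer RNA genes, 5 fell, with a median of -0.28 over all 6. Over all genes tested, 22.7% fell. GTF3C5 (ENSG00000148308, chr9:135906062-135933890, plus strand) was at 75.1 and 47.6 CPM in control vector cells in DMSO and BI8622, at 73.0 and 50.5 CPM in shHUWE1 cells, at 69.5 and 53.4 CPM without doxycycline and at 69.4 and 48.6 CPM with it. The treatments did not overlap, and the response was -0.52 ± 0.11 (adjusted p = 0.000255). GTF3C4 (chr9:135545422-135570340, plus strand) went from 96.3 to 77.0, from 91.3 to 74.4, from 102 to 70.5 and from 106 to 65.4 CPM in the same arms, a response of -0.47 ± 0.20 (adjusted p = 0.00139). GTF3C6 fell by 0.31 ± 0.17, GTF3C2 by 0.25 ± 0.06 and GTF3C1, the largest subunit, by 0.18 ± 0.07. The call for GTF3C1 was lost in the HUWE1 arms alone (adjusted p = 0.0939), without the shMiz1 arm with no doxycycline (adjusted p = 0.0757) and without that with doxycycline (adjusted p = 0.124). GTF3C3 was not called, at 0.11 ± 0.12 (adjusted p = 0.180).

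GTF3A, the zinc finger protein TFIIIA that is needed for 5S ribosomal RNA, fell by 0.33 ± 0.15 (adjusted p = 0.00336), with DMSO levels of 125 to 143 CPM and BI8622 levels of 94.5 to 110 CPM. MAF1, the repressor of polymerase III, fell as well, by 0.27 ± 0.08 (adjusted p = 0.00512), from 58.1 to 66.9 CPM over the DMSO groups to 48.4 to 54.0 CPM over the BI8622 groups. None of the 3 TFIIIB genes was called. BRF1 gave 0.02 ± 0.25, BDP1 -0.11 ± 0.19 and BRF2, which serves the U6-type promoters, 0.16 ± 0.11, with adjusted p-values of 0.887, 0.265 and 0.137.

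The promoters of the members were searched for CACGTG, the E-box core that MYC and related factors bind, because MYC binding was part of the study; the motif reads the same on both strands. RefSeq promoters (GRCh38.p14, 250 bases before to 50 bases after a gene start) were given for 50 of the 67 members, 67 promoters in all. The motif was in 3 of the 26 promoters of members that fell (11.5%), in 2 of 9 of those that rose (22.2%) and in 6 of 32 of those not called (18.8%). It was in 7.26% of all 35116 promoters and in 10.6% of those of all genes tested that fell, 8.61% of those that rose and 8.50% of those not called. The matches in members that fell, all of TFIIIC, and those in members that rose follow with 12 bases on each side, on the strand of the gene and with the E-box in capitals. These are matches of letters and not measured binding.
GTF3C4 (chr9:132669988-132670017, plus strand): ggcccgggacccCACGTGggacgcgcgagg
GTF3C2 (chr2:27356850-27356879, minus strand): ccggaccaagcaCACGTGtttaccttgtgc
GTF3C6 (chr6:110958552-110958581, plus strand): gtggcgagtctcCACGTGggtaccggcgct
GTF2H1 (chr11:18322511-18322540, plus strand): gcgctcttgagtCACGTGcccagggcccgc
GTF2H1 (chr11:18322544-18322573, plus strand): gctacttccggtCACGTGccctcagactcc
GTF2IRD1 (chr7:74454324-74454353, plus strand): tgcccggggaggCACGTGactgggattata

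The match in GTF3C4 started 35 bases before the gene start, those in GTF3C2 and GTF3C6 103 and 142 bases before it, those in GTF2H1 44 and 11 bases before it, and that in GTF2IRD1 43 bases before it. MYC itself was lower in BI8622 in every arm. Its level went from 123 to 95.2 CPM in control vector cells, from 152 to 129 CPM in shHUWE1 cells, from 91.7 to 38.7 CPM without doxycycline and from 114 to 46.3 CPM with it, a response of -0.79 ± 0.57 (adjusted p = 0.00563). MYC was higher in shHUWE1 than in control vector cells, by 0.28 in DMSO and 0.46 in BI8622 (limma, adjusted p = 0.00112). With doxycycline it was higher by 0.31 in DMSO and 0.27 in BI8622 (limma, adjusted p = 3.20e-05). With a constant variance prior neither call remained. The part of MYC in the responses of the members was not tested.

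Of the 6 factors for polymerase I, 2 fell and 1 rose, where 22.7% of all genes fell and 23.1% rose. Their median response was 0.03. UBTF, which binds along ribosomal DNA, fell by 0.26 ± 0.07 (adjusted p = 0.00491), from 93.0 to 107 CPM over the DMSO groups to 78.7 to 87.2 CPM over the BI8622 groups. RRN3, which links the enzyme to its promoter, gave 0.03 ± 0.14 (adjusted p = 0.719). Within SL1, TAF1C fell by 0.22 ± 0.09 (adjusted p = 0.0183), TAF1B rose by 0.26 ± 0.18 (adjusted p = 0.0391), and TAF1A and TAF1D each gave 0.03 ± 0.14. The calls of TAF1C and TAF1B were lost when single arms were left out: TAF1C without the control vector (adjusted p = 0.0751), shHUWE1 (0.0601) or shMiz1 doxycycline arm (0.0595), and TAF1B without the control vector arm (0.161), the shMiz1 arm with no doxycycline (0.127) or that with doxycycline (0.0880).

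Most factors for polymerase II were not called, 11 of 15, against 13039 of the 24051 genes tested. GTF2A2, the small subunit of TFIIA, fell by 0.34 ± 0.08 (adjusted p = 0.00185), from 44.2 to 51.0 CPM over the DMSO groups to 33.0 to 40.6 CPM over the BI8622 groups. Of 7 genes of the TFIIH core, which opens promoter DNA and repairs DNA, GTF2H1 rose by 0.31 ± 0.20 (adjusted p = 0.0122) and GTF2H3 by 0.19 ± 0.14 (adjusted p = 0.0419), and GTF2H2C fell by 0.24 ± 0.02 (adjusted p = 0.0134). GTF2H2C, GTF2H2 and GTF2H2B are near-identical copies, GTF2H2B being listed as a pseudogene in the annotation, so the value of each is uncertain. Without the shMiz1 doxycycline arm none of these 3 calls remained (adjusted p = 0.0713, 0.121 and 0.0621), and in the HUWE1 arms alone GTF2H1 gave 0.14 (adjusted p = 0.111). GTF2H3 was also not called without the control vector arm (adjusted p = 0.187) or the shMiz1 arm with no doxycycline (0.0624), and GTF2H2C without the latter (0.0508). GTF2B, GTF2E1, GTF2E2, GTF2F1 and GTF2F2, which complete the preinitiation complex, lay between -0.16 and -0.02.

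Other parts of the polymerase II machinery were read from lists that the rule did not cover. Over all genes tested, 22.7% fell and 23.1% rose, and no list was tested as a set. In TFIID, 3 of 16 genes fell and 3 rose, with a median of -0.09: TAF5 fell by 0.62 ± 0.19, TAF11 by 0.36 ± 0.07 and TAF4B by 0.26 ± 0.20, and TAF12 rose by 0.26 ± 0.09. The kinase module of TFIIH was split, CDK7 rising by 0.41 ± 0.05 and its partner MNAT1 falling by 0.58 ± 0.13. Of 19 pausing and elongation genes, 7 fell and 3 rose. Among them AFF4, the scaffold of the super elongation complex, rose by 0.52 ± 0.04, TCEA1, which is TFIIS, rose by 0.49 ± 0.40, TCEB3 (elongin A) fell by 0.51 ± 0.17 and NELFCD, of the negative elongation factor, fell by 0.48 ± 0.11. In the Mediator, 8 of 30 genes fell and 4 rose, with MED22 at -0.56 ± 0.04, MED23 at 0.51 ± 0.16, MED12 at 0.44 ± 0.03 and MED21 at -0.41 ± 0.30. Of 14 genes for assembly and C-terminal domain modification, 3 fell and 1 rose, GPN3 falling by 0.37 ± 0.08. Of 4 genes of mitochondrial transcription, 2 fell, the factors TFAM by 0.72 ± 0.38 and TFB2M by 0.47 ± 0.17. The mitochondrial polymerase itself, POLRMT, was not called, at -0.02 ± 0.11 (adjusted p = 0.782).

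In the TFII-I family, 3 of the 4 genes rose, against 23.1% of all genes tested. Among the 3 was a pair of near-identical copies, and GTF2I, which encodes TFII-I itself, was not called. These proteins were named as general factors but bind DNA in a sequence-specific way, and their genes lie in or beside the region of chromosome 7 that is lost in Williams syndrome. GTF2IRD2B (chr7:74508364-74565623, plus strand, GRCh37) had the highest response of all members: its level went from 7.60 to 14.3 CPM in control vector cells, from 9.29 to 14.9 CPM in shHUWE1 cells, from 7.67 to 27.0 CPM without doxycycline and from 7.15 to 26.2 CPM with it, a response of 1.26 ± 0.57 (adjusted p = 0.000665) or 2.40-fold. GTF2IRD2 (chr7:74210483-74267847, minus strand) rose by 1.11 ± 0.44 (adjusted p = 0.000516), from 4.95 to 6.07 CPM over the DMSO groups to 8.98 to 18.3 CPM over the BI8622 groups. These are the near-identical copies, which may share reads. GTF2IRD1 rose by 0.46 ± 0.25 (adjusted p = 0.00302), from 54.1 to 67.6 CPM to 73.2 to 92.6 CPM. GTF2I gave -0.14 ± 0.26 (adjusted p = 0.222), with 127 to 146 CPM in DMSO and 112 to 141 CPM in BI8622. In the arms of the MIZ1 experiment alone it fell by 0.37 (adjusted p = 1.07e-08), whereas in those of the HUWE1 experiment alone it gave 0.08 (adjusted p = 0.308). Each of these fits rests on 2 arms and was not repeated with a constant variance prior.

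The size of the response differed between the experiments for a part of the members. The test of this difference was chosen after the data were seen. It called 9 members with a lower response in the MIZ1 experiment and 6 with a higher one, 13.4% and 8.96% of the members, where 8.65% and 6.35% of all genes were called. POLR3G, POLR2K, POLR1A, POLR1B, POLR2B and GTF3C4 fell more in the MIZ1 experiment, by 0.34 to 0.57 on the log2 scale. For POLR1A the mean was -0.36 in the HUWE1 arms and -0.79 in the MIZ1 arms (difference -0.43, adjusted p = 0.000768), and for POLR3G it was -0.51 and -1.09 (difference -0.57, adjusted p = 0.00135). GTF2IRD2B, GTF2IRD2, GTF2IRD1 and GTF2H1 rose more in the MIZ1 experiment. POLR3K, POLR2E, POLR2L and POLR2M gave differences of -0.09 to 0.03, none of which was called. MYC also had the larger response in the MIZ1 experiment, at -1.27 and -1.30 in its arms against -0.39 and -0.21 in those of the HUWE1 experiment. The experiments used different vectors and infected cell pools, and the paper states that making the MIZ1-depleted cells included a sorting step. Library kits of 2 kinds were used in the study. A difference between experiments and one between vectors, cell pools, kits or culture days cannot be told apart. Each call of this difference needed a variance prior that follows the expression level: with a constant prior no gene was called.

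BRF1 and GTF2A1 were the 2 of 67 members called in opposite directions by the fits within each experiment. How many of all genes were called so was not counted, and each fit rests on 2 arms. BRF1, the TFIIIB subunit for transfer RNA genes, went from 74.5 to 67.3 and from 70.1 to 59.0 CPM in the HUWE1 experiment and from 69.2 to 86.2 and from 72.3 to 81.8 CPM in the MIZ1 experiment (-0.19 and 0.23). GTF2A1, the large subunit of TFIIA, went from 66.1 to 78.2 and from 67.6 to 72.7 CPM, and from 95.3 to 89.0 and from 98.3 to 88.9 CPM (0.18 and -0.14). The mean over the 4 arms of either gene was therefore near 0 although its arms were not.

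Few members were called between shHUWE1 and control vector cells. The control vector was empty, so an effect of expressing an shRNA and of losing HUWE1 cannot be told apart. Over DMSO and BI8622, 1 member fell and none rose in shHUWE1 cells against control vector cells, where 2.78% and 3.08% of all genes fell and rose. At an unadjusted p under 0.05, 7 members were lower and 1 was higher. The called member was POLR2M, at -0.26 in DMSO and -0.25 in BI8622 (adjusted p = 0.0348), which is opposite to its response to the inhibitor. This call was lost with a pseudocount of 0.1 CPM and with a constant variance prior. The mean differences of the members ran from -0.26 to 0.52. The highest was that of GTF2A1L, a gene of only 2.23 to 3.61 CPM in the HUWE1 experiment (adjusted p = 0.0746). Of the 67 members, 3 lay beyond 0.2 in either direction, against 23.8% of all genes. All genes here go down to 1 CPM and were not matched to the members by level. POLR1A, POLR2D, POLR3K and GTF3C5 gave 0.00, -0.16, -0.05 and 0.03.

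The response to BI8622 was set side by side in control vector and shHUWE1 cells. The difference (shHUWE1 minus control vector) was most positive for POLR3K, at 0.39, since it fell by 1.13 in control vector cells and by 0.75 in shHUWE1 cells. The difference was most negative for GTF2F2, a TFIIF subunit, at -0.43, with responses of 0.13 and -0.30. With 1 difference per gene these values have no test. POLR1A, POLR2E, POLR2L and POLR2M differed by -0.06 to 0.03 between the same arms.

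Few members were called for doxycycline in the shMiz1 cells as well. Over DMSO and BI8622, 1 member rose and none fell, where 1.18% of all genes rose and 2.07% fell, and at an unadjusted p under 0.05, 2 members were higher and 4 lower. The called member was again POLR2M, higher by 0.23 with doxycycline (adjusted p = 0.0179). With a constant variance prior this call was lost too. The differences of the members ran from -0.23 for POLR2J to 0.23, and 3 of 67 lay beyond 0.2, against 15.8% of all genes. The genes were again not matched to the members by level.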

How the data were processed

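Members and gene lists were chosen with earlier results of these data known. Poly-A RNA of 16 libraries was aligned to hg19 and pairs of groups were compared with edgeR by the authors (Bowtie 0.12.8 in the processing notes). The deposited log2 CPM values are the authors' means over both groups of a pair, in 4 columns for the HUWE1 and 5 for the MIZ1 experiment. The deposited fold changes and p-values of the pairs hold the authors' own comparisons and were not used, and the 6 ChIP libraries were not analysed here.

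The mean of a pair was taken as the mean of its 2 groups on the linear scale, and the 4 groups of each experiment were solved by least squares. The MIZ1 experiment has 1 column more than groups; the median residual was 0.0321% of the level and the 95th percentile 0.132%. Differences were tested with limma 3.58.1 in R 4.3.3 (eBayes with trend, Benjamini-Hochberg over 24051 genes), tested on simulated data first. The shHUWE1 and doxycycline tests and the fits within 1 experiment rest on 2 differences each. The fits within 1 experiment were not repeated with a constant variance prior. Named were all called members, the extremes of each class, members called for shHUWE1 or with the extreme change of response in shHUWE1 cells, at most 4 called genes of each related list, and HUWE1, ZBTB17 and MYC; GTF3C3, POLR2G and others stated as not called were added after their values were seen. Alternatives were pseudocounts of 0.1 and 2 CPM, no filter and a filter at 5 CPM, no centring, rescaled columns, a constant variance prior and each arm left out. The fits within 1 experiment and the test between experiments were added after the data were seen. Positions are from GENCODE v44 lifted to GRCh37.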

Additional observations from a re-analysis of the deposited data

Results flagged for a closer look

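The response to BI8622 differed between the MIZ1 and the HUWE1 experiment for 15 members by the limma test of the difference, which was chosen after the data were seen and called none of them with a constant variance prior. The response in the MIZ1 arms minus that in the HUWE1 arms, on the log2 scale, was -0.57 for POLR3G, -0.51 for POLR2K, -0.45 for GTF2I, -0.43 for POLR1A, -0.42 for POLR1B, -0.41 for POLR2B, -0.34 for GTF3C4, -0.32 for BDP1 and -0.32 for GTF2A1. It was 0.32 for GTF2H1, 0.38 for GTF2IRD1, 0.38 for POLR2J2, 0.42 for BRF1, 0.71 for GTF2IRD2 and 0.98 for GTF2IRD2B. Experiment, vector, infected cell pool, culture days and library kit cannot be told apart in this design.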

How the results depend on the processing

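Under the 11 alternatives planned, 24 of the 35 called members kept their call and no called member changed direction. The other 11 lost it when an arm was left out, 3 of them also with a constant variance prior. With arms left out, between 20 and 25 members fell and between 4 and 10 rose, while between 7917 and 10871 of all genes were called, against 11012 with all arms. For shHUWE1, 0 members were called with a pseudocount of 0.1 CPM and 0 with a constant variance prior, which also left 0 of all genes for shHUWE1, 0 members and 0 genes for doxycycline, and 0 members in either direction and 0 genes for the difference between experiments; the cause was not tested. The class medians were also taken with arms left out and in each experiment alone, alternatives chosen after seeing the data. They moved by less than the SD of their arm medians except for the subunits shared by all enzymes (between -0.44 and -0.38 with arms left out, the latter without the shMiz1 doxycycline arm, and -0.39 in the HUWE1 arms), polymerase III only (-0.11 in the MIZ1 arms, against -0.03) and polymerase II only (0.048 in the MIZ1 arms, against -0.08); the cause was not tested. The medians of the polymerase I and II factors, near 0, also changed side in some of these fits. The SD of the arm medians includes any gap between the experiments, so it cannot judge such a gap. The median of polymerase I only was -0.36 in the HUWE1 arms alone and -0.78 in the MIZ1 arms alone. That of the TFII-I family was 0.51 and 1.06. No paired analysis was possible because the deposited columns carry no replicate numbers. Values of single libraries were not used here, and genes of a few CPM, such as GTF2A1L, are the least certain.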
